A study of Homo sapiens with 6 samples.

Results

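The 10 genes described here encode receptors with which myeloid cells bind antibodies or activated complement: FCGR1A, FCGR2A, FCGR2B, FCGR3A, FCER1G, FCGRT, CR1, C3AR1, C5AR1 and CD93. They were taken by name, as a family, out of 34893 genes with a transcript in the files, and 9 of the 10 had enough counts to enter a test across 14569 genes. RNA was sequenced from THP-1, a human acute monocytic leukaemia line that grows in suspension. The stock of the German collection DSMZ gave 3 libraries and that of the American Type Culture Collection (ATCC) gave 3 libraries. All 6 cultures were untreated and in logarithmic growth. Both stocks were grown side by side in RPMI with 20% fetal bovine serum at 37 °C and 5% CO2, for 48 h after seeding and 24 h more after being divided. The replicate expansions were independent, but the labels do not say how many vials were used, so the bank and the particular stock obtained from it cannot be told apart.

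Receptors for the Fc part of IgG let phagocytes bind antibody-coated particles. The activating ones signal through a tyrosine motif, either in their own tail (FCGR2A) or in a partner, the common gamma chain encoded by FCER1G, while FCGR2B carries an inhibitory motif that recruits phosphatases. FCGRT encodes the heavy chain of the neonatal Fc receptor, which pairs with B2M and returns IgG and albumin from endosomes to the surface. Complement receptors bind fragments left on a target (CR1) or the released anaphylatoxins C3a (C3AR1) and C5a (C5AR1). CD93 is a C-type lectin-like membrane protein that was first studied as a candidate C1q receptor.

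The bases before the transcription start are shown for 3 IgG receptor genes because they carry a stretch or motifs that can be set side by side. All are RefSeq sequences of GRCh38.p14, 250 bases each, 5′ to 3′ on the strand of the gene. The table held 9 of the 10 genes, and CD93 was not among them. Capitals mark GAGGAA, the core bound by the myeloid factor PU.1, and TTCNNNGAA, the form of the gamma interferon activation site (GAS) bound by STAT proteins, each searched on both strands with overlaps allowed.

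FCGR1A at chr1:149782444-149782693, plus strand: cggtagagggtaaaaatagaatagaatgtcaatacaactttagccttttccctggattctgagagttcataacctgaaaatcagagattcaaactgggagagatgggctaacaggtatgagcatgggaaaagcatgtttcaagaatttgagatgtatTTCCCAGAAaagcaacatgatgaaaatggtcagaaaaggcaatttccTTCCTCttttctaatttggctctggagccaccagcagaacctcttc
FCGR2A at chr1:161505207-161505456, plus strand: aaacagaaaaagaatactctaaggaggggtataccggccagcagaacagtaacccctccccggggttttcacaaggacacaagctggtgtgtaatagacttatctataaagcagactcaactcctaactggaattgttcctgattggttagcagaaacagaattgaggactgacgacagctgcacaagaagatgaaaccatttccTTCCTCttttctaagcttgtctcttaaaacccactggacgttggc
FCGR2B, the second of its listed starts, at chr1:161662893-161663142, plus strand: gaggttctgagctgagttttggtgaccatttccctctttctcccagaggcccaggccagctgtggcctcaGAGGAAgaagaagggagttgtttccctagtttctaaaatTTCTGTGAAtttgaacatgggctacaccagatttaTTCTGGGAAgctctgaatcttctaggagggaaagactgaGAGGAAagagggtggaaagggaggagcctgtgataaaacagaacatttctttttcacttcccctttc

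FCGR1A and FCGR2A shared a stretch of 20 bases, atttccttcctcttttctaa, which begins 52 bases before the FCGR1A start and 51 bases before the FCGR2A start. It contains the PU.1 core on the opposite strand. Of 35116 promoter windows of this length, 2 held the stretch, those of these genes. The PU.1 core itself is common, with a match in 23.6% of the windows. The GAS form was in 6.57% of windows, and FCGR1A had 1 match and the FCGR2B window 2. FCGR1A and FCGR2A had 1 PU.1 core each and that FCGR2B window 2, while the first listed FCGR2B start had neither motif. No match to either motif was found in the windows of FCER1G, FCGRT, CR1 or C3AR1, or in any listed window of FCGR3A. C5AR1 held 2 PU.1 cores. These are matches of letters, and binding was not measured.

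Libraries held between 23413428 and 37119721 estimated counts. ATCC replicate 2 stood apart from the others of its group, with a chi-square per degree of freedom of 95.0 and 56.7 against ATCC replicates 1 and 3, where the other pairs within a bank had 4.34 to 11.8. It was the highest of all 6 libraries for FCGR1A, FCER1G, FCGRT and CD93, and the FCER1G and FCGRT folds are also given without it. Monocyte markers were present in both stocks, though not all of those listed. The 12 genes summed to 725 to 900.1 CPM (counts scaled to the library total) in DSMZ libraries and 863.6 to 1201.6 CPM in ATCC libraries. LYZ had the highest mean in both, at 336.7 CPM in DSMZ and 298.6 CPM in ATCC. MS4A6A was at 48.9 CPM in DSMZ and 252.2 CPM in ATCC, while S100A8, S100A9 and CSF1R were higher in DSMZ. CD14, the lipopolysaccharide co-receptor, was scarce, with 28 counts over the DSMZ libraries and 109 over the ATCC libraries. S100A12 (11 counts in DSMZ, 13 in ATCC) and CD86 (37 counts in DSMZ, 21 in ATCC) were too scarce to be tested. Levels are CPM unless TPM (estimated transcripts scaled for transcript length and total) is written, and each fold change is on the log2 scale, DSMZ minus ATCC. In bulk RNA, fewer cells with a transcript and less of it per cell cannot be told apart.

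The receptors did not move as a block. In DSMZ cells the common gamma chain, the neonatal Fc receptor and the activating IgG receptors FCGR2A and FCGR1A fell (FCGR1A when counted apart from its near copies), while the C3a receptor and CR1 rose. By edgeR's quasi-likelihood test with Benjamini-Hochberg adjustment over all 14569 genes, 6 of the 9 tested receptor genes passed an adjusted p of 0.05, with 2 higher in DSMZ and 4 lower. Over all tested genes 49.8% passed, 24.1% higher in DSMZ and 25.7% lower, so the share of the receptor genes (66.7%) is not read as a result about them. The median fold change of the 9 was -0.44, against 0.01 over all tested genes. The 3 libraries of each bank did not overlap in 8 of the 9, where the same held for 61.7% of all tested genes.

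**Figure D1:**
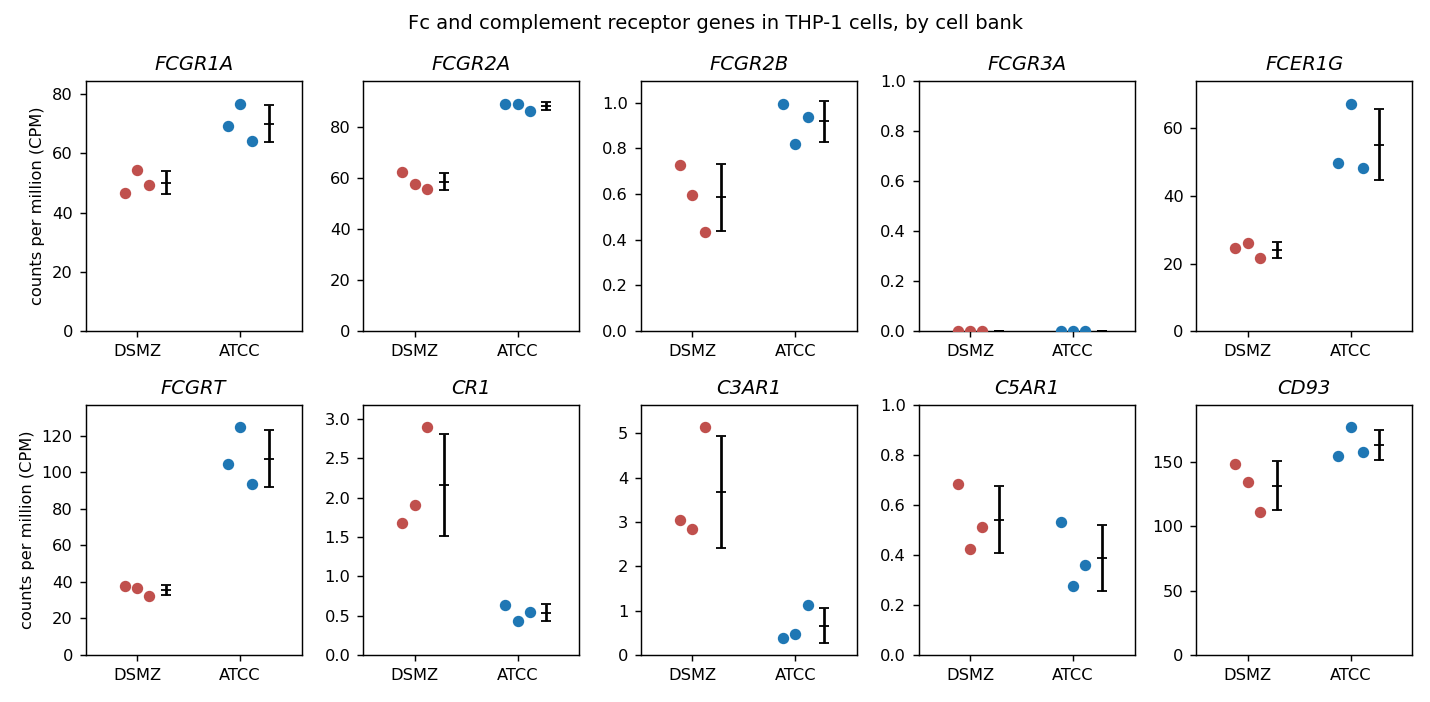
Level (CPM) of each receptor gene in each library (points, on linear axes from 0), with the mean and SD of the 3 libraries of a bank beside them, DSMZ left and ATCC right. FCGRT, FCER1G, FCGR1A and FCGR2A are lower in every DSMZ library than in any ATCC library, CR1 and C3AR1 are higher, C5AR1 overlaps and FCGR3A is at 0 throughout.

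Among the IgG receptors, FCGR2A, the low-affinity activating receptor with its own signalling motif (chromosome 1, 161505430 to 161524013), was at 62.5, 57.7 and 55.7 CPM in the DSMZ libraries and at 89.1, 88.9 and 86.4 CPM in the ATCC libraries. Every DSMZ library was below every ATCC library, and the ATCC values lay close together. The mean was 58.7 ± 3.49 CPM in DSMZ and 88.1 ± 1.49 CPM in ATCC (SD, n = 3 each). The log2 fold change was -0.54 (SE 0.09, edgeR adjusted p = 0.00199).

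FCGR1A, the high-affinity IgG receptor (chromosome 1, 149782671 to 149792518), was at 46.6, 54.2 and 49.3 CPM in the DSMZ libraries and at 69.2, 76.7 and 64.1 CPM in the ATCC libraries. The groups did not overlap, and the log2 fold change was -0.44 (SE 0.11, edgeR adjusted p = 0.0114). This call was made with FCGR1A counted apart from its near-identical relatives. FCGR1B (chromosome 1, 121087345 to 121096310), a related gene on the other side of the centromere, was at 44.7, 55.7 and 47.0 CPM in DSMZ and 45.3, 44.6 and 44.8 CPM in ATCC, where the groups overlapped (0.18, SE 0.11, edgeR adjusted p = 0.219). The pseudogene FCGR1CP was at 6.52 ± 0.695 CPM in DSMZ and 7.29 ± 1.85 CPM in ATCC. With the 3 summed, the family was at 97.0, 116.5 and 103.5 CPM in DSMZ libraries and 122.3, 130.1 and 114.2 CPM in ATCC libraries. These sums overlapped between the banks and did not pass the test (-0.18, SE 0.11, edgeR adjusted p = 0.214). Whether reads were wrongly divided among the 3 was not tested. Adding relatives that did not differ would also shrink a difference held by FCGR1A alone, and the sum cannot tell these apart. The FCGR1A call was also lost without DSMZ replicate 1 (adjusted p = 0.0713) and without DSMZ replicate 3 (adjusted p = 0.0522).

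The inhibitory receptor FCGR2B (chromosome 1, 161663147 to 161678654) was near the limit of detection, with 17, 17 and 16 estimated counts in the DSMZ libraries and 28, 21 and 26 in the ATCC libraries. That is 0.586 ± 0.148 CPM in DSMZ and 0.917 ± 0.0885 CPM in ATCC (SD, n = 3 each). The libraries did not overlap, yet the difference did not pass (-0.63, SE 0.26, edgeR adjusted p = 0.0783). Most of these counts were given to the intron-retaining transcript FCGR2B-204, with 15.6, 17.4 and 12.3 estimated counts in DSMZ and 25.7, 15.3 and 20.3 in ATCC. FCGR2B made up 0.309 ± 0.0359% of the summed TPM of FCGR2A and FCGR2B in DSMZ and 0.428 ± 0.0368% in ATCC. The exact two-sided permutation p for that share was 0.1, the smallest that 3 against 3 libraries can give. With counts in place of TPM the difference was -0.0494 percentage points (exact permutation p = 0.7), against -0.119 with TPM. FCGR2C, a near copy of FCGR2B that is a pseudogene in many people, had 52 counts over the DSMZ libraries and 61 over the ATCC libraries. Because the sequences are so alike, the division of reads between FCGR2B and FCGR2C is uncertain. The sum of FCGR2A, FCGR2B and FCGR2C, nearly all of it FCGR2A, fell by 0.55 on the log2 scale (SE 0.1, edgeR adjusted p = 0.00216).

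FCGR3A, the receptor of natural killer cells and of a subset of monocytes (chromosome 1, 161541759 to 161550737, minus strand), had 0 counts in all 6 libraries. This allows up to 0.0338 CPM over the DSMZ libraries and 0.0368 CPM over the ATCC libraries, at 3 counts over a group. Its neutrophil copy FCGR3B was also at 0 counts in all 6, so no reads of the pair were assigned to either gene.

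**Figure D2:**
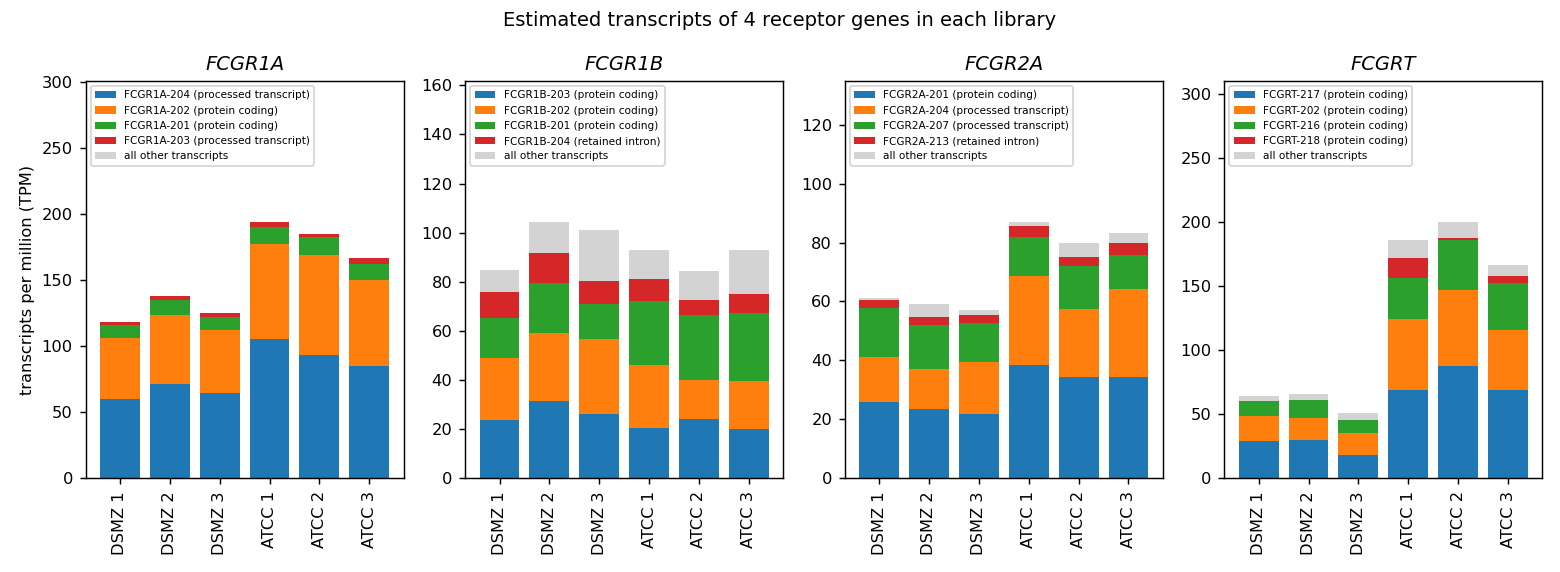
Stacked TPM of the 4 most abundant transcripts and of all others for FCGR1A, FCGR1B, FCGR2A and FCGRT, 1 bar per library, DSMZ libraries left. The FCGRT bars reach 51.0 to 65.5 TPM in DSMZ and 166.5 to 200.3 TPM in ATCC, with the same transcripts leading in both.

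The transcripts behind these genes were mixed. Short transcripts without a reading frame held much of the TPM of FCGR1A, where FCGR1A-204 took 51.1, 51.8 and 51.3% in DSMZ and 54.2, 50.3 and 51.0% in ATCC. The longest transcript, FCGR1A-201, was at 9.57, 11.6 and 9.72 TPM in DSMZ and 12.9, 13.7 and 11.9 TPM in ATCC. For FCGR2A the leading coding transcript FCGR2A-201 took 42.0, 39.8 and 38.0% in DSMZ and 44.2, 43.1 and 41.2% in ATCC. The noncoding FCGR2A-207 had a larger share in every DSMZ library than in any ATCC library, at 26.9, 25.4 and 23.4% in DSMZ and 15.1, 18.3 and 13.8% in ATCC. FCGR2A-204, also noncoding, leaned the other way with overlap, at 25.0, 23.0 and 30.9% in DSMZ and 34.7, 29.1 and 35.9% in ATCC. No shift towards noncoding FCGR2A as a whole is read from these shares. Transcript shares are estimates from overlapping sequences and were not tested.

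FCER1G, the gamma chain that FCGR1A and the IgA receptor FCAR signal through (chromosome 1, 161215234 to 161220699), was at 24.7, 26.0 and 21.5 CPM in DSMZ and at 49.7, 67.2 and 48.3 CPM in ATCC. All DSMZ libraries were below all ATCC libraries. The log2 fold change was -1.15 (SE 0.15, edgeR adjusted p = 0.000585), a 2.21-fold lower level, and it was -0.99 without ATCC replicate 2. Set against the receptors that use it, FCER1G had 0.801, 0.725 and 0.647 TPM per TPM of FCGR1A, FCGR3A and FCAR in DSMZ libraries and 1.02, 1.31 and 1.11 in ATCC libraries. These ratios did not overlap (difference -0.422, exact two-sided permutation p = 0.1, the smallest possible here). The difference was -0.908 with protein-coding transcripts alone and -0.308 with CPM. FCAR itself went the other way, at 2.73 ± 0.494 CPM in DSMZ and 1.54 ± 0.21 CPM in ATCC (0.88, SE 0.21, edgeR adjusted p = 0.0102, n = 3 each). The FCAR call was lost with the transcript length offset (0.67, adjusted p = 0.0838) and on both TPM scales. FCAR was not tested with primary assembly transcripts alone or with protein-coding transcripts alone, since its reads lay on other sequences. The ratio with protein-coding transcripts alone thus left out the FCAR reads.

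FCGRT, the neonatal Fc receptor heavy chain (chromosome 19, 49506816 to 49526333), had the largest fall of the family. It was at 37.8, 36.5 and 32.2 CPM in DSMZ libraries and at 104.6, 124.5 and 93.4 CPM in ATCC libraries. The highest DSMZ library was below the lowest ATCC library by more than the spread within either bank. The log2 fold change was -1.55 (SE 0.13, edgeR adjusted p = 8.2e-05), a 2.93-fold lower level, and -1.44 without ATCC replicate 2. Its partner B2M went the other way by a small margin, at 1257.5 ± 79.6 CPM in DSMZ and 1055.1 ± 74.9 CPM in ATCC (0.30, SE 0.09, edgeR adjusted p = 0.0227, n = 3 each). That call was lost in 8 of 20 alternatives, among them upper quartile scaling (0.22, adjusted p = 0.119) and the GC offset (0.18, adjusted p = 0.347). The coding transcripts FCGRT-217, FCGRT-202 and FCGRT-216 were each lower in every DSMZ library than in any ATCC library. FCGRT-202 was at 19.5, 17.2 and 16.5 TPM in DSMZ and at 55.4, 59.6 and 47.3 TPM in ATCC.

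C3AR1, the G protein-coupled receptor for C3a (chromosome 12, 8058302 to 8066471, minus strand), had the largest rise. It had 71, 81 and 190 counts in the DSMZ libraries and 11, 12 and 31 in the ATCC libraries, which is 3.04, 2.85 and 5.13 CPM in DSMZ and 0.391, 0.469 and 1.12 CPM in ATCC. Replicate 3 was highest in both banks, and the groups did not overlap. The log2 fold change was 2.53 (SE 0.42, edgeR adjusted p = 0.002), a 5.77-fold higher level. It was 2.35 without ATCC replicate 2, 3.13 without ATCC replicate 3 and 1.63 by limma on log2(TPM + 0.5), a pseudocount close to the ATCC level, and passed in each.

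CR1, the receptor for C3b and C4b on blood cells (chromosome 1, 207496147 to 207641765), had 39, 54 and 107 counts in DSMZ libraries and 18, 11 and 15 in ATCC libraries. These are 1.67, 1.9 and 2.89 CPM in DSMZ and 0.64, 0.43 and 0.54 CPM in ATCC. Each DSMZ library was above each ATCC library, with DSMZ replicate 3 the highest. CR1 rose by 2.06 on the log2 scale (SE 0.3, edgeR adjusted p = 0.0011), or 4.16-fold, and by 0.67 in limma on log2(TPM + 0.5), where the pseudocount exceeds the ATCC level. It was 1.93 without ATCC replicate 2. In DSMZ the long coding transcript CR1-205 led, with 33.1, 46.5 and 91.5 estimated counts. It did not lead in ATCC, where its 8.79, 3.76 and 3.92 counts equalled those of another coding transcript of the same length. Reads were thus divided differently among the long transcripts in the 2 stocks. The size of the CR1 rise is not read from CR1-205 alone. CR1L, the neighbouring relative, had 0 counts in DSMZ and 1 in ATCC. Because CR1 is also a B cell gene, B cell markers are given beside it. Of 10 listed, 6 of 7 tested were higher in DSMZ and 0 lower, and their sum was 22.2 to 27.4 CPM in DSMZ libraries and 7.67 to 8.61 CPM in ATCC libraries. CD79B, a subunit of the B cell receptor, was at 9.32 ± 1.52 CPM in DSMZ and 0.99 ± 0.303 CPM in ATCC (SD, n = 3 each), and MS4A1 and BLK were at 0 counts in all 6 libraries. The part of these genes in the CR1 result was not tested.

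C5AR1, the C5a receptor (chromosome 19, 47290023 to 47322066), was scarce in both stocks, with 16, 12 and 19 counts in DSMZ and 15, 7 and 10 in ATCC. The groups overlapped at 0.54 ± 0.134 CPM in DSMZ and 0.389 ± 0.132 CPM in ATCC (0.49, SE 0.34, edgeR adjusted p = 0.273, n = 3 each). On length-scaled values it passed (limma on log2(TPM + 0.5), difference 0.75, adjusted p = 0.0441), where a noncoding transcript of 407 bases was estimated at 0, 1.09 and 4.88 counts in DSMZ and 0, 0 and 0.552 in ATCC. The second C5a receptor, C5AR2, had more counts and fell to 1.31 ± 0.182 CPM in DSMZ, against 3.36 ± 0.175 CPM in ATCC (-1.29, SE 0.17, edgeR adjusted p = 0.000694, n = 3 each; -0.59 by limma on log2(TPM + 0.5)). CD93 (chromosome 20, 23079349 to 23086340, minus strand) was at 148.5, 134.6 and 110.7 CPM in DSMZ and at 154.8, 176.6 and 157.9 CPM in ATCC. Although the libraries did not overlap, the difference was small and did not pass (-0.27, SE 0.12, edgeR adjusted p = 0.102).

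**Figure D3:**
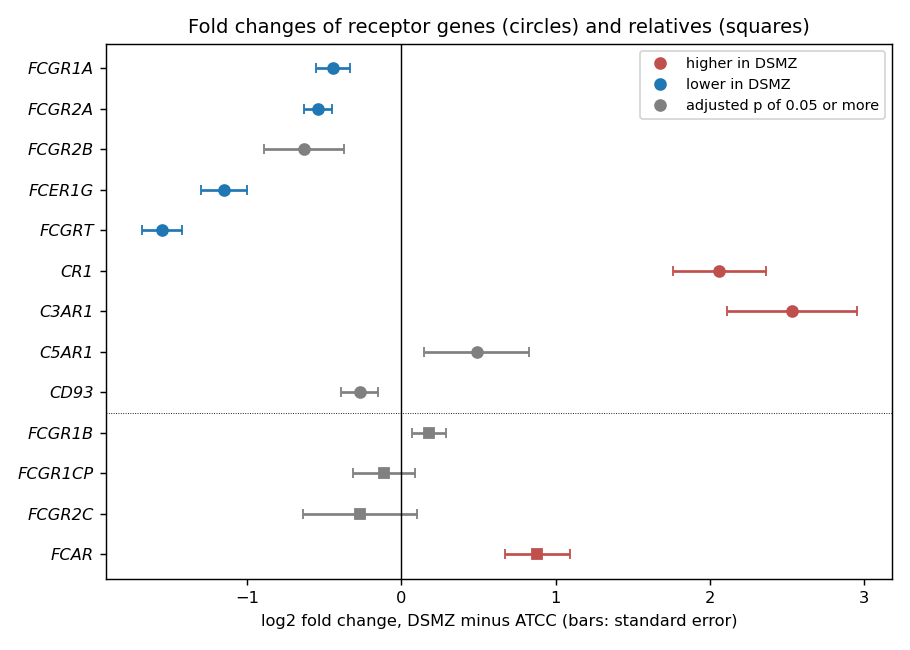
Log2 fold changes, DSMZ minus ATCC, with standard errors, of the 9 tested receptor genes (circles) and 4 relatives (squares). Red marks genes higher in DSMZ and blue genes lower in DSMZ at an adjusted p under 0.05; C3AR1 (2.53) and FCGRT (-1.55) mark the ends of the range.

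Per unit of length and over all transcripts of a gene, FCGR1A had the highest mean in DSMZ, at 127 ± 10.2 TPM, followed by FCER1G at 93.4 ± 9.97 TPM and by FCGRT and FCGR2A at 60.3 ± 8.06 and 59.2 ± 2.14 TPM, which overlapped each other. In ATCC, FCER1G at 209.9 ± 30.3 TPM, FCGRT at 184.5 ± 17.0 TPM and FCGR1A at 182 ± 14.1 TPM formed an overlapping top group, above FCGR2A at 83.3 ± 3.62 TPM. CD93 came next in both, at 23.2 ± 3.51 TPM in DSMZ and 28.4 ± 0.732 TPM in ATCC. Below it, C3AR1 reached 2.32 ± 0.777 TPM in DSMZ, clear of C5AR1 (0.926 ± 0.548 TPM), CR1 (0.469 ± 0.128 TPM) and FCGR2B (0.184 ± 0.0243 TPM). In ATCC, C3AR1 (0.412 ± 0.252 TPM), FCGR2B (0.358 ± 0.0197 TPM) and C5AR1 (0.31 ± 0.0777 TPM) could not be ordered beyond their spread, and CR1 (0.108 ± 0.046 TPM) was lowest of those detected (SD, n = 3 each).

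The place of FCGR1A rests on its noncoding transcripts, and the part played by the division of reads with FCGR1B was not tested. Over protein-coding transcripts alone, a sum added after the data were seen, FCGR1A was at 59.2 ± 4.12 TPM in DSMZ and 84.2 ± 6.28 TPM in ATCC. FCER1G then stood above it in both stocks, at 93.4 ± 9.97 TPM in DSMZ and 209.9 ± 30.3 TPM in ATCC. FCGRT was at 58.7 ± 8.06 TPM in DSMZ, overlapping FCGR1A, and at 179.1 ± 15.9 TPM in ATCC, above it. FCGR2A was at 23.9 ± 2.07 TPM in DSMZ, overlapping CD93, and at 36.5 ± 2.04 TPM in ATCC (SD, n = 3 each).

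Since stretches of chromosome can differ between stocks of a line, each gene was set beside the tested genes within 1 Mb on either side. Around FCGRT, 50 of 64 neighbours passed, 47 of them lower in DSMZ, with a median of -0.82, and 10 of the 64 were lower than FCGRT itself. Around C3AR1, 14 of 17 passed, 12 of them higher in DSMZ, with a median of 0.73, and C3AR1 was above all 17. CR1 did not lean with its surroundings: its 10 tested neighbours had a median of -0.27 with 5 lower and 1 higher, and CR1 was above all 10. FCAMR, an Fc receptor for IgA and IgM in that window, was lowest of them at -2.36. The windows of FCER1G, FCGR2A, FCGR2B and FCGR3A overlap one another, so the tested receptor genes among them are counted as each other's neighbours. In that of FCER1G, 16 of 35 neighbours passed, 13 of them lower in DSMZ, with a median of -0.31, and 4 lay below FCER1G. In that of FCGR2A, 16 of 31 passed, 13 lower, with a median of -0.36, against -0.54 for FCGR2A. Over all tested genes 49.8% passed, with 25.7% lower in DSMZ, and the median over 1479 tested genes of chromosome 1 was -0.12. FCGR1A had a median of -0.11 over 40 neighbours, C5AR1 -0.08 over 37 and CD93 -0.06 over 5. Whether neighbours and receptors share a cause was not tested.

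**Figure D4:**
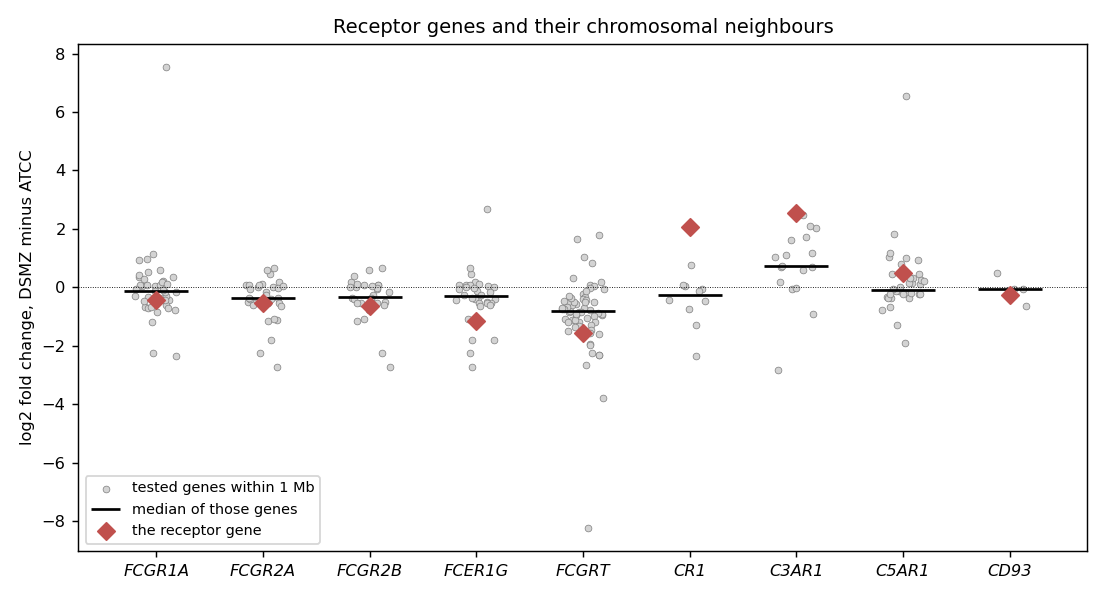
Log2 fold changes, DSMZ minus ATCC, of the 9 tested receptor genes (diamonds) and of all tested genes within 1 Mb of each (points, with a line at their median). FCGRT and C3AR1 lie in neighbourhoods that lean the same way (medians -0.82 and 0.73), while CR1 at 2.06 stands above neighbours with a median of -0.27.

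Of 33 tested kinases and adaptors that carry the signal of activating Fc receptors, 8 were higher in DSMZ and 9 lower, with a median of -0.02. These shares are near those over all tested genes (24.1% higher, 25.7% lower), which are also the background of the lists that follow, and nothing particular to the signalling genes is read from them. SYK, the kinase that docks on phosphorylated tyrosine motifs, fell to 204.9 ± 9.99 CPM in DSMZ, against 359.8 ± 55.4 CPM in ATCC (-0.76, SE 0.11, edgeR adjusted p = 0.00116, n = 3 each). Also lower in DSMZ were CARD9 (-2.05), an adaptor below SYK, and the Tec family kinases TEC (-1.18) and BTK (-0.98). HCST, the DAP10 adaptor, was higher (2.39). TYROBP, the DAP12 adaptor, was at 35.8 ± 5.83 CPM in DSMZ and 37.2 ± 10.3 CPM in ATCC and did not pass (edgeR adjusted p = 0.987, n = 3 each).

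Inhibitory signalling genes had 4 of 18 tested higher in DSMZ and 7 lower, with a median of -0.29. INPP5D, the lipid phosphatase SHIP that FCGR2B recruits, was at 440.5 ± 25.5 CPM in DSMZ and 311.5 ± 52.3 CPM in ATCC (0.55, SE 0.12, edgeR adjusted p = 0.00684, n = 3 each). The INPP5D call was lost without ATCC replicate 3 (0.46, adjusted p = 0.0506). PTPN6, a tyrosine phosphatase of the same pathway, was at 0.37 (edgeR adjusted p = 0.0325) and INPPL1, a relative of INPP5D named after its value was seen, at -0.33, calls that were lost in 13 and 7 of 20 alternatives. CD300A, an inhibitory receptor, was at 0.88. PAG1 (-1.99), DOK2 (-1.60) and DOK1 (-1.02), all adaptors of inhibitory complexes, were lower.

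Of the other Fc receptor genes, 2 of 10 tested were higher in DSMZ, FCAR and the IgE receptor FCER2 (2.44), and 3 lower, FCAMR, the cytosolic antibody receptor TRIM21 (-1.12) and CD247 (-1.80), the zeta chain that pairs with FCGR3A. With protein-coding transcripts alone CD247 was at -0.28 and did not pass (adjusted p = 0.616). FCER2 and FCAMR were named after their values were seen, and by limma on log2(TPM + 0.5) they were at 1.23 and -0.78. A list of other complement receptors and related genes, FPR1, FPR2, CALR, LRP1 and SCARF1 among them, had 1 of 11 tested higher in DSMZ, C1QBP (0.68). Lower were 3, C5AR2, the integrin subunit ITGAX (-0.49) and VSIG4. VSIG4, a C3b receptor of tissue macrophages, was named after its value was seen, with 3 counts in DSMZ and 74 in ATCC. ITGAX was not called without DSMZ replicate 1 or without DSMZ replicate 3 (adjusted p = 0.0862 and 0.103). The other chains of the integrin complement receptors did not pass, with ITGAM at 20.2 ± 5.66 CPM in DSMZ and 24.7 ± 6.15 CPM in ATCC (edgeR adjusted p = 0.441) and ITGB2 at 508.1 ± 44.9 CPM in DSMZ and 639.8 ± 132.6 CPM in ATCC (edgeR adjusted p = 0.136, n = 3 each). Genes of neonatal Fc receptor traffic had 2 of 9 higher in DSMZ, B2M and the recycling GTPase RAB11A (0.29, named after its value was seen), and 3 lower, RAB11FIP5 (-1.80), RAB11FIP1 (-0.70) and RAB4A (-0.43). The RAB11A call was lost in 11 of 20 alternatives. Below the anaphylatoxin receptors, 6 of 23 tested signalling genes rose in DSMZ, the arrestin ARRB2 (1.20) among them, and 8 fell, including the G protein subunits GNA14 (-3.08, and -1.78 by limma on log2(TPM + 0.5)) and GNAI1 (-2.58) and the regulator RGS18 (-1.19, a call lost in 7 of 20 alternatives).

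Markers of other blood cells moved in several directions beside these receptors. Macrophage markers had 1 of 7 tested higher in DSMZ and 5 lower, with a sum of 236.1 to 268.3 CPM in DSMZ and 286.8 to 399 CPM in ATCC and with C1QB at 0. Most of that sum was CD68, which was not called (195.1 CPM in DSMZ, 232.5 CPM in ATCC). CD163, MRC1, C1QA and C1QC had 1, 0, 2 and 0 counts over the DSMZ libraries and 19, 3, 8 and 8 over the ATCC libraries. Granulocyte markers had 5 of 10 higher and 3 lower, with sums of 3555.8 to 3857 CPM in DSMZ and 4272 to 5324.2 CPM in ATCC. T and natural killer cell markers, of which CD3E was at 0, summed to 7.45 to 10.1 CPM in DSMZ and 14.6 to 18.3 CPM in ATCC, with 1 of 5 tested higher and 3 lower. Mast cell and basophil markers summed to 52.2 to 57.6 CPM in DSMZ and 38.5 to 44.5 CPM in ATCC (1 of 3 higher, 0 lower), with CPA3 at 0. Nearly all of that sum was KIT (26.4 CPM in DSMZ, 16.8 CPM in ATCC) and GATA2 (26.2 CPM in DSMZ, 22.6 CPM in ATCC). FCER1A, TPSAB1, TPSB2 and HDC had 0, 0, 7 and 1 counts over the DSMZ libraries and 1, 3, 12 and 2 over the ATCC libraries. Erythroid and megakaryocyte markers summed to 8.69 to 10.2 CPM in DSMZ and 9.44 to 10.2 CPM in ATCC, 2 of 6 in each direction, with HBG1 and PF4 at 0. Of the monocyte markers 3 of 10 were higher and 4 lower. The part of these genes in the receptor results was not tested.

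The fold changes of the receptor genes were recomputed under other scalings, filters, transcript sets and tests and without each library. Their signs were the same in every fit run. FCGR1A lost its call in 3 of 20 alternatives, and FCGR2B and C5AR1 gained one in 3 each.

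**Figure D5:**
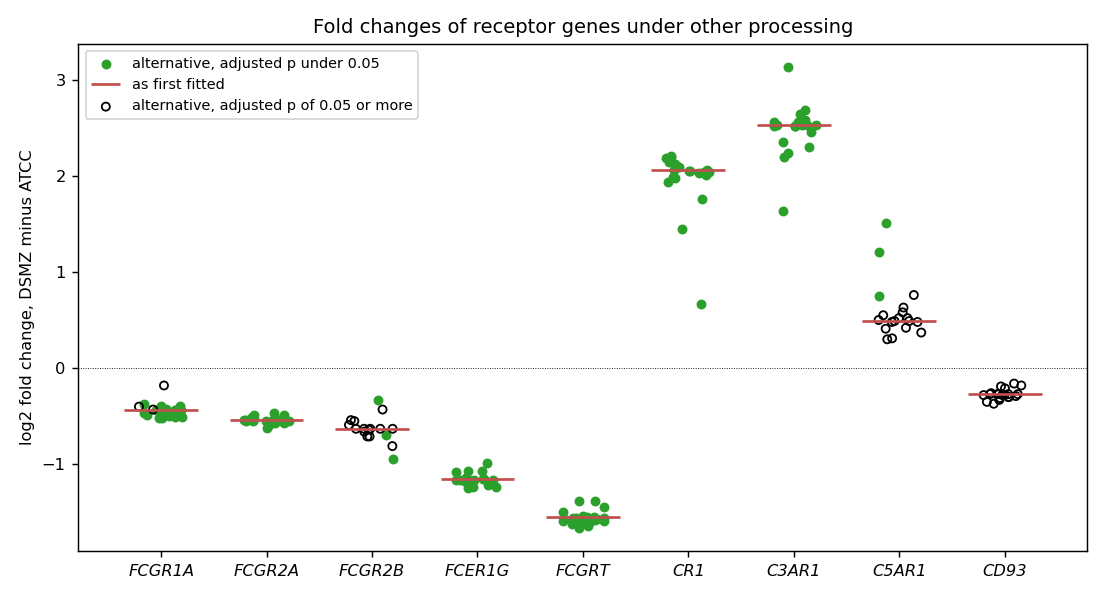
Log2 fold changes, DSMZ minus ATCC, of the 9 tested receptor genes as first fitted (lines) and under each alternative (filled points passed an adjusted p of 0.05, open points did not). No point crosses 0, and among genes called as first fitted the open points are those of FCGR1A, at -0.43, -0.40 and -0.18.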

How the data were processed

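Poly(A) RNA of 6 THP-1 cultures was sequenced with a stranded kit, per the labels' protocols. The submitters' processing notes name bcl2fastq 2.20, Trimmomatic 0.35 and kallisto 0.43.0 with build GRCh38, and the transcript annotation was not given in the sources used here. Per the file headers, the deposited tables give estimated counts, which are not normalized, and TPM values scaled by effective length, which is the same in all libraries.

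Of 179973 transcripts, 163714 were matched to GENCODE 29 by identifier and 14229 by gene symbol. The other 2030 (0.181 to 0.199% of counts) were left out. Estimated counts were summed per gene and rounded. CPM divide by the gene-matched library total. Genes were tested with edgeR 4.0.16 in R 4.3.3 (filterByExpr, TMM factors 0.972 to 1.03, quasi-likelihood F test, source as the only term), with Benjamini-Hochberg adjustment and a threshold of 0.05. SE was taken as the absolute log2 fold change over the root of the F statistic. The labels state that replicate expansions were made independently. Deviations from the bank mean correlated weakly between same-numbered libraries (0.00982, 0.0671 and 0.148). Between differently numbered libraries the correlations ran from -0.101 to 0.022. Replicate numbers are not stated to mark a shared day, so no block was used in the main fit.

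Named genes are all receptor genes and their near copies, 13 fixed pathway genes, and up to 4 genes per pathway list past the threshold with at least 1 CPM. The members and lists were chosen with earlier results of these data known. The fit was first tested on simulated data. Floors cover counting error only. Alternatives were DESeq2 1.42.0, limma 3.58.1 on log2(TPM + 0.5) and log2(TPM + 0.1), other scalings and filters, other sets of transcripts, length and GC offsets, a replicate block, near-identical genes summed, and leaving out each library.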

Additional observations from a re-analysis of the deposited data

How the results depend on the processing

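No receptor gene changed direction under any of up to 20 alternatives. FCGRT (-1.66 to -1.38), FCER1G (-1.25 to -0.99), FCGR2A (-0.62 to -0.47), CR1 (0.67 to 2.21) and C3AR1 (1.63 to 3.13) stayed past the threshold in all 20. The lowest CR1 and C3AR1 values came from limma on log2(TPM + 0.5), where the pseudocount is near their level. CD93 (-0.37 to -0.16) passed in none. FCGR1A was lost in 3 (near-identical genes summed, and without DSMZ replicate 1 or 3). C5AR1 passed in 3, the transcript length offset (1.51), log2(TPM + 0.5) (0.75) and log2(TPM + 0.1) (1.21), and FCGR2B in the same 3 (-0.94, -0.33 and -0.69), so 8 receptor genes passed in each of them. The cause was not tested beyond the transcripts named above. Numbers of receptor genes called ranged from 5 to 6 when a library was left out, and over all genes from 5506 to 9510 against 7260. With the replicate block 7012 genes and 6 receptor genes passed, and with the GC offset 9325 and 6. The FCER1G ratio difference moved to -0.908 with coding transcripts alone, which left out the FCAR reads. Of 55 other named genes, 35 kept their call and direction in every alternative run, 13 lost a call, 2 gained one, and 6 that were not called as first fitted, with CD46 counted in both, changed direction: CD55 (-0.01) with upper quartile scaling, CD59 with the length offset (-0.07) and on both TPM scales (-0.11), TYROBP, first at 0, with the GC offset (0.12), the replicate block (0.01) and both (0.12), and 5 when a library was left out. Over those fits CD46 ran from -0.31 to 0.07, FCGR1CP from -0.32 to 0.05, FCGR2C from -0.50 to 0.03, CD55 from -0.01 to 0.12 and TYROBP from -0.16 to 0.24. At 50 and 75 counts for FCGR2B and 47 and 32 for C5AR1 (DSMZ and ATCC), depth limits what can be seen of these genes.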

Other observations

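Of 14 tested complement components, 5 were higher in DSMZ and 4 lower, where 24.1% of all tested genes were higher and 25.7% lower, so nothing particular to complement is read from these counts. C1R and C1S, the serine proteases of the C1 complex, whose genes both lie within 1 Mb of C3AR1, went opposite ways. C1R was higher in DSMZ (log2 fold change 1.18, and 0.69 by limma on log2(TPM + 0.5)), a gene named after its value was seen, while C1S was at 0.448 ± 0.168 CPM in DSMZ and 3.19 ± 0.365 CPM in ATCC (-2.82, SE 0.26, edgeR adjusted p = 0.000139, n = 3 each; -1.05 and adjusted p = 0.0603 with the transcript length offset). C5, the precursor of C5a, was at 8.58 ± 2.26 CPM in DSMZ and 33.0 ± 14.2 CPM in ATCC (-1.91, SE 0.36, edgeR adjusted p = 0.00342, n = 3 each). Properdin (CFP) was lower in DSMZ (-1.08, a call lost when any DSMZ library was left out, adjusted p = 0.0646 to 0.102, and -0.59 without ATCC replicate 2) and C1RL, a relative of the C1 proteases, higher (0.69). No counts of C1QB, C6, C8A, C8B, FCN2, FCN3 or MBL2 were found in any library.

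Of 9 tested genes in a list of complement regulators and related genes, 3 were higher in DSMZ and 2 lower. SERPING1, the C1 inhibitor, was at 4.29 ± 0.232 CPM in DSMZ and 1.22 ± 0.285 CPM in ATCC (1.86, SE 0.2, edgeR adjusted p = 0.000248, n = 3 each), and CPN2, a subunit of the carboxypeptidase that trims anaphylatoxins, was also higher (2.82, and 1.15 by limma on log2(TPM + 0.5)). The third was CD248, a relative of CD93 named after its value was seen, with a mean of 0.665 CPM in DSMZ and 0.012 CPM in ATCC. Clusterin (CLU, -2.03) and CSMD3 (-2.67) were lower. The size of the CSMD3 fold depended on the processing, with -0.98 by limma on log2(TPM + 0.5) and -6.96 with protein-coding transcripts alone. The membrane regulators that protect cells from complement did not pass in edgeR's test as first fitted. CD46 was at 154.5 ± 6.2 CPM in DSMZ and 171.7 ± 48.6 CPM in ATCC, CD55 at 27.6 ± 2.58 CPM in DSMZ and 27.2 ± 1.47 CPM in ATCC, and CD59 at 9.73 ± 0.86 CPM in DSMZ and 9.33 ± 0.911 CPM in ATCC. CD46 passed at -0.31 with the GC offset (adjusted p = 0.00207), with that offset and the replicate block (adjusted p = 0.00568) and without ATCC replicate 2 (adjusted p = 0.00689), and was at 0.07 without ATCC replicate 1. Of 24 tested genes of phagocytic engulfment, 4 were higher in DSMZ, led by the myosin MYO1G (2.34) with the phospholipase PLD1 (0.81), and 4 lower, led by the actin regulator WAS (-1.36) and the kinase PRKCE (-1.24). PRKCE was at -0.16 and not called with the transcript length offset (adjusted p = 0.477), and PLD1 lost its call on log2(TPM + 0.5) (adjusted p = 0.0502).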
